A study of Homo sapiens with 8 samples.

Results

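The hnRNP genes encode heterogeneous nuclear ribonucleoproteins, abundant RNA-binding proteins that coat nascent transcripts. All rows listed under 10 gene symbols were taken: HNRNPA1, HNRNPA2B1, HNRNPC, HNRNPD, HNRNPDL, HNRNPH1, HNRNPK, HNRNPL, HNRNPM and HNRNPU. They held 90 of the 142206 introns with values and 10 of the 15902 genes. All samples were SUM159, a human cell line established from triple-negative breast cancer. Cells received H3B-8800, a splicing modulator directed at the SF3b complex, or only its solvent DMSO (vehicle) for 12 h. Polyadenylated RNA was sequenced either directly, here called input, or after pull-down with J2, which recognises double-stranded RNA. The 4 groups were input RNA with vehicle, input RNA with drug, J2 RNA with vehicle and J2 RNA with drug, each with 2 biological replicates. No library came from a control antibody, so J2 RNA may hold RNA recovered for other reasons.

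Many hnRNPs bind pre-mRNA near splice sites and help to decide which exons and introns are kept. HNRNPA1 and HNRNPA2B1 often act against SR proteins at exons, HNRNPC binds uridine tracts, HNRNPL binds CA repeats and HNRNPK binds cytidine-rich RNA. Several hnRNP genes are known to control their own level through alternative splicing that leads to nonsense-mediated decay. SF3b recognises the branch point upstream of the 3′ splice site, and H3B-8800 interferes with that step.

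For each intron, reads inside it are called intronic reads and reads joined across it are called spliced reads. The intronic share is the intronic part of both together. It is a share of reads, not of transcripts. The hnRNP introns had 56 to 17201 bases, and the share was not corrected for length. RPM is a read count multiplied by 1e+06 and divided by the depth that the authors used, which was 47000000 to 57000000 reads per library. Spliced and intronic reads per gene are sums over its listed introns. The libraries held 12612577 to 14643731 such reads in all, of which intronic reads were 481032 to 582852 with vehicle and 1391359 to 1728916 with drug. A gene or intron is said to have risen or fallen where its adjusted p was under 0.05. All 7 mesenchymal marker genes were listed, with a summed level of 1100 to 1415 spliced RPM. ZEB1 was low among them, with group means of 0.0890 to 0.784 RPM. The luminal list summed to 186.6 to 291.0 RPM, with ESR1 and PGR at 0 in every library. Other luminal genes were present, with group means of 85.9 to 123.5 RPM for KRT8, 71.8 to 124.4 for KRT18 and 17.2 to 36.7 for ERBB2. CDH1 and EPCAM had group means of at most 0.0465 and 0.0306 RPM. Immune markers summed to 5.88 to 9.46 RPM with CD3E at 0 and CD68 at group means of 6.05 to 9.04. The endothelial pair summed to at most 0.0943 RPM with CDH5 at 0.

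Intron 7 of 12 of HNRNPL had the highest intronic share of the hnRNP introns in input RNA with drug, so its whole sequence is shown first. Intron 12 of the same gene also rose, and its last 60 bases follow. The shortest hnRNP intron, HNRNPH1 intron 7 of 13, and the last 60 bases of HNRNPA1 intron 2 of 9 are shown as introns with almost no intronic reads. Sequences were read on the transcribed strand from GENCODE 29 transcripts that cover the introns, on build GRCh38. Capitals mark the AG at the 3′ splice site.
HNRNPL intron 7: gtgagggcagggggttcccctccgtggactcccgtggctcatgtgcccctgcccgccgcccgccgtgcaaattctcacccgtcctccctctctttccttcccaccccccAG
HNRNPL intron 12: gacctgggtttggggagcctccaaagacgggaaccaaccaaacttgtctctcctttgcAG
HNRNPH1 intron 7: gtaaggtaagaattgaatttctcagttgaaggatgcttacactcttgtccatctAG
HNRNPA1 intron 2: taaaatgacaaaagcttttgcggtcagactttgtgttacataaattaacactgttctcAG

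HNRNPL intron 7 lies at chr19:38840377-38840487 on the minus strand, between coding exons, and has 111 bases. GENCODE 29 annotates 3 HNRNPL transcripts that keep it, of which 1 is protein-coding and the others are retained-intron transcripts. HNRNPL intron 12 lies at chr19:38836781-38837383. HNRNPH1 intron 7 lies at chr5:179617933-179617988, and HNRNPA1 intron 2 at chr12:54281503-54281794 on the plus strand. Reference transcripts gave the sequence of 29 of the 90 introns, 27 with GT and AG ends and 2 with GC and AG ends. HNRNPL intron 7 had the highest GC content of these 29, 69.4%, with 54.9% for the next and a median of 35.1%. Of its 50 bases before the AG, 82.0% were C or T, against a median of 58.0% and 76.0% for the next. Shortness went with both high and low shares. Of 16 hnRNP introns of at most 120 bases, 3 had an intronic share over 10% in input RNA with drug and 12 had one under 1%.

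HNRNPL intron 7 changed from mostly spliced to mostly intronic reads. In input RNA with vehicle it held 106 and 122 intronic reads beside 857 and 1086 spliced reads. With drug it held 1162 and 1249 intronic reads beside 446 and 517 spliced reads. Its intronic share was 11.01% and 10.1% with vehicle and 72.3% and 70.7% with drug, so the groups did not overlap. In J2 RNA the share was 8.70% and 9.20% with vehicle and 70.5% and 72.2% with drug, which is close to the input values. On the log2 scale of intronic reads + 1 over spliced reads + 1, the ratio rose by 4.40 ± 0.32 (SE) in input RNA (limma, adjusted p = 0.000325) and by 4.65 ± 0.32 in J2 RNA (adjusted p = 0.000192). This intron held 2411 of the 3083 intronic reads of HNRNPL in input RNA with drug, or 78.2%.

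Other introns of HNRNPL, the CA-repeat binding protein, also gained intronic reads. For each gene the intron of highest share in input RNA with drug was described by rule, and the further introns named here were chosen once their values were known. Intron 5 had 0 intronic reads in all 4 vehicle libraries and 55, 60, 52 and 66 in the drug libraries of input and J2 RNA. Its mean share with drug was 15.8% in input RNA and 14.04% in J2 RNA. Intron 12 went from 0.510% to 11.7% in input RNA, with 2 and 0 intronic reads becoming 37 and 47. Intron 6, which contains an exon of an annotated nonsense-mediated decay transcript, had a share of 8.35% with vehicle and 17.5% with drug in input RNA, a log2 ratio change of 1.22 ± 0.48 that did not pass. In J2 RNA the share of intron 6 went from 2.03% to 15.02% and the ratio rose by 3.14 ± 0.48. Reads in the third listed HNRNPL intron cannot be told apart from those of AC008982.2, a gene annotated inside it on the same strand, and that intron was not called. The plot of HNRNPL reads by intron shows the peak at intron 7 in all 4 drug libraries.

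**Figure D1:**
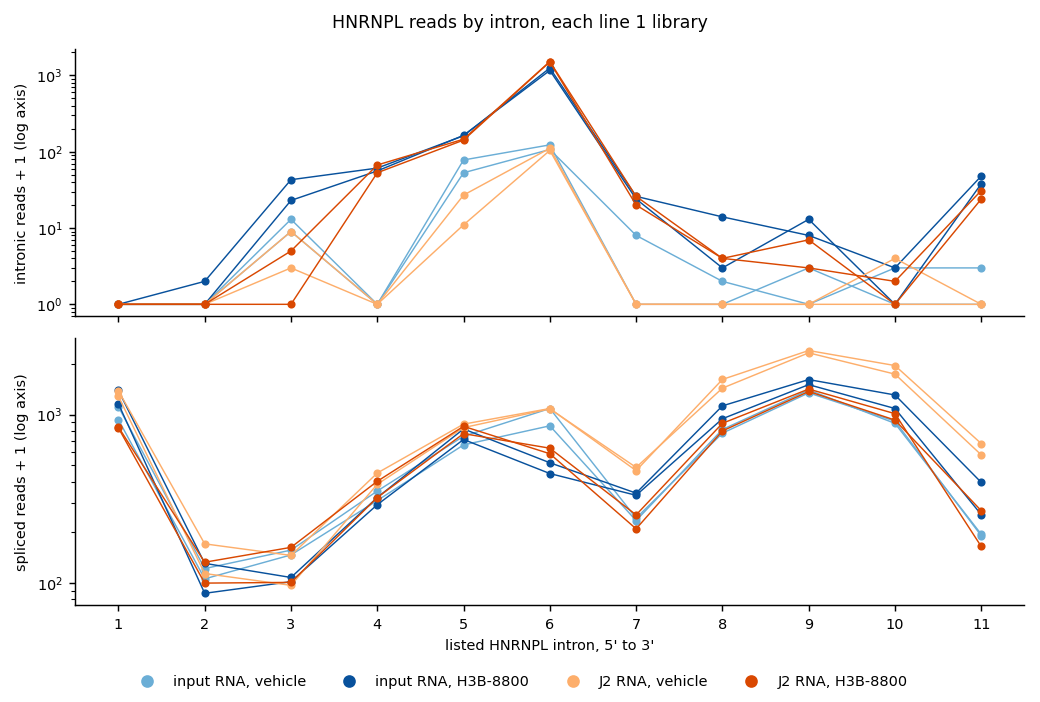
Intronic reads (top) and spliced reads (bottom) of each listed HNRNPL intron, both with 1 added and on log axes, with 1 line per library. The sixth listed intron, which is intron 7 of 12, holds 1162 to 1520 intronic reads in the drug libraries against 103 to 122 in the vehicle libraries.

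HNRNPC, which binds uridine tracts, had the next highest share among introns that rose. Intron 8 of 8 lies at chr14:21211307-21211405 and has 99 bases. GENCODE 29 annotates a pair of protein-coding HNRNPC transcripts whose exons cover it. It held 47 and 37 intronic reads in input RNA with vehicle and 870 and 906 with drug. In J2 RNA it held 73 and 63 with vehicle and 805 and 683 with drug. The mean share went from 3.10% to 28.6% in input RNA and from 3.13% to 26.0% in J2 RNA, without overlap between groups. The ratio rose by 3.63 ± 0.34 (adjusted p = 0.000542) in input RNA and by 3.42 ± 0.34 (adjusted p = 0.000531) in J2 RNA. Almost all intronic reads of HNRNPC in input RNA with drug came from this intron, 1776 of 1783. Its spliced reads also rose, so intronic and spliced reads of HNRNPC moved the same way.

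HNRNPM, a regulator of alternative exons, gained reads in its last intron while its spliced reads fell. Intron 14 of 14, at chr19:8487076-8488690, held 2 and 2 intronic reads in input RNA with vehicle and 27 and 38 with drug. It contains an exon of an annotated protein-coding HNRNPM transcript, and reads of that exon would count as intronic here. The mean share went from 0.628% to 16.4% in input RNA and from 1.20% to 16.6% in J2 RNA. The ratio rose by 4.40 ± 0.41 and by 3.85 ± 0.41. In HNRNPA2B1, the share stayed low but rose in a run of introns near the 3′ end. Intron 8 of 10 held 3 and 1 intronic reads in input RNA with vehicle and 60 and 50 with drug, beside 2357, 2491, 2209 and 2299 spliced reads in the same libraries. The mean share was 0.0836% with vehicle and 2.39% with drug, a rise of the ratio by 4.41 ± 0.44. Introns 7, 9 and 10 of HNRNPA2B1 rose as well in both input and J2 RNA.

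HNRNPDL, a close relative of HNRNPD, went the other way. Its intron 7 of 7 lies in the 3′ UTR at chr4:82424884-82426036. It contains an exon of annotated nonsense-mediated decay transcripts and is covered as 3′ UTR by 1 annotated protein-coding HNRNPDL transcript. It held 98.0% of the intronic reads of the gene in input RNA with vehicle. The share was 33.0% and 36.0% with vehicle and 26.4% and 31.3% with drug in input RNA, a log2 ratio change of -0.37 ± 0.35 that did not pass. In J2 RNA the share was 28.0% and 31.7% with vehicle and 14.7% and 12.0% with drug, and the ratio fell by 1.45 ± 0.35 (adjusted p = 0.0155). That call was lost without J2 drug replicate 2 (adjusted p = 0.0569) or J2 vehicle replicate 2 (adjusted p = 0.0776). The corresponding 3′ UTR intron of HNRNPD, intron 7 of 7, had mean shares between 3.97% and 4.80% in the 4 groups and was not called.

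The intron of highest share in the other members held few reads. HNRNPH1 intron 4 of 13 had shares from 9.59% to 20.2% in input RNA, and the groups overlapped. HNRNPK intron 5 of 16 held at most 9 intronic reads, and antisense exons of AL354733.3 overlap it. HNRNPK intron 3 of 16, at chr9:83977787-83978194, held 0 intronic reads in the 4 vehicle libraries, 6 and 9 in input RNA with drug and 2 and 6 in J2 RNA with drug. Its share with drug was 4.52% in input RNA and 1.61% in J2 RNA, and the ratio rose by 3.71 ± 0.36 (adjusted p = 0.000567) and by 1.18 ± 0.36 (adjusted p = 0.0333). HNRNPU intron 3 of 13 held at most 5 intronic reads in a library, and HNRNPA1 intron 3 of 9 at most 2. HNRNPH1 intron 7 had 0 intronic reads beside 223 spliced reads in input RNA with drug, and HNRNPA1 intron 2 had 5 beside 8064.

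**Figure D2:**
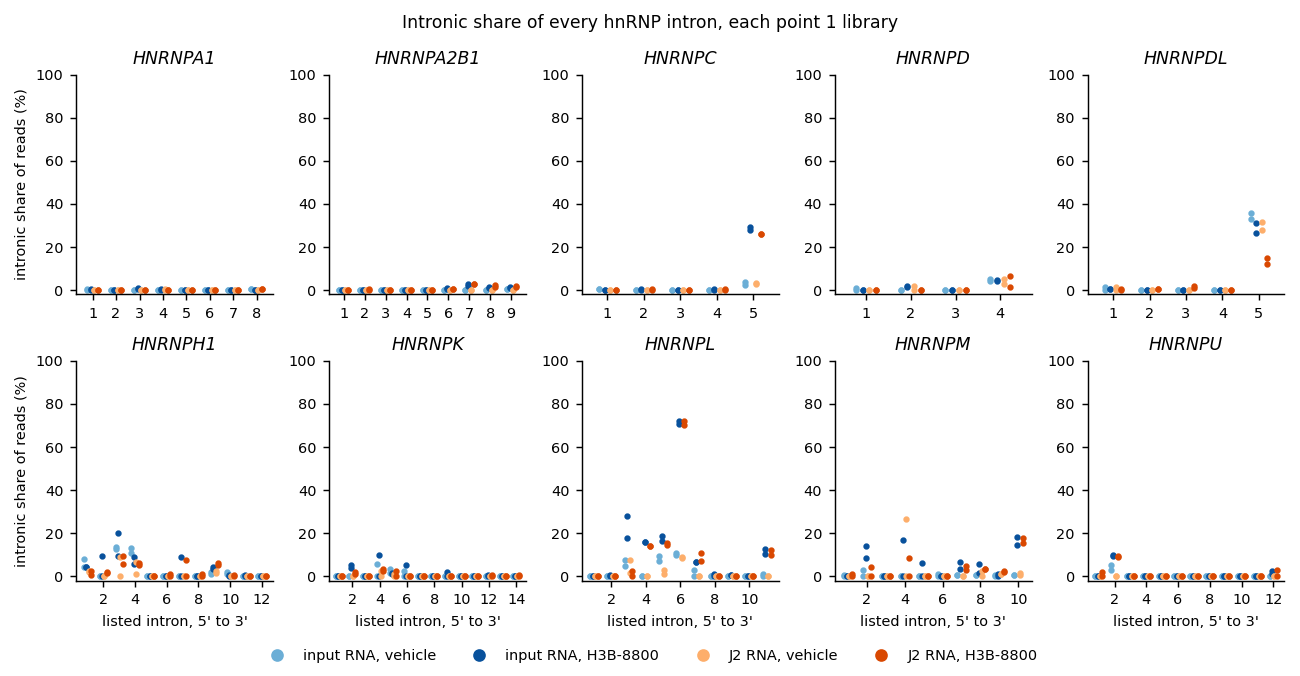
Intronic share of reads (percent) for each listed intron of the 10 genes in 5′ to 3′ order, with each point 1 library. HNRNPL intron 7 stands at 70.5% to 72.3% in the drug libraries, HNRNPC intron 8 at 25.9% to 29.3%, and most other introns lie near 0; some high points, as in HNRNPM, rest on few reads.

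Of 89 hnRNP introns tested in input RNA, 31 rose and 2 fell, where 40.8% of all 45220 introns tested rose and 2.75% fell. In J2 RNA 24 rose and 4 fell, against 39.8% and 6.42% of all introns. The median log2 change of the hnRNP introns was 0.98 in input RNA and 0.58 in J2 RNA, below the medians of all introns tested, 1.33 and 1.20. Many of these calls came without intronic reads. Of the 90 introns, 18 had 0 intronic reads in every library, 52 had at most 9 and 20 had 10 or more in at least 1 library. With 0 or few intronic reads the ratio moves with spliced reads alone because of the 1 added to both, as in HNRNPU introns 4 to 10, which had 0 intronic reads throughout and were called as risen in input RNA.

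Summed per gene, intronic reads rose with drug in input RNA in 5 of the 8 members that could be tested, where 62.3% of all genes rose and 5.65% fell. HNRNPC rose by 4.39 ± 0.17 on the log2 scale (edgeR, adjusted p = 5.82e-21), HNRNPL by 3.04 ± 0.11, HNRNPA2B1 by 2.82 ± 0.28 and HNRNPM by 2.42 ± 0.45. HNRNPA1 rose by 1.55 ± 0.68, on 13 reads with vehicle and 37 with drug, a call lost without any 1 of 3 input libraries (adjusted p from 0.0685 to 0.277), and HNRNPDL fell by 0.82 ± 0.20. HNRNPD and HNRNPU had under 0.2 intronic RPM on average and were not tested. In J2 RNA 7 rose and HNRNPDL fell by 1.60 ± 0.21, against 70.8% and 5.2% of all genes. HNRNPL rose there by 3.85 ± 0.12, HNRNPC by 3.55 ± 0.16, HNRNPA2B1 by 3.96 ± 0.32 and HNRNPH1 by 1.41 ± 0.36. HNRNPK rose by 2.98 ± 0.89, on 3 reads with vehicle and 24 with drug. HNRNPA1 rose by 2.58 ± 0.81, on 5 reads with vehicle and 29 with drug. Without J2 drug replicate 1 the HNRNPA1 value was 1.68.

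The scaling matters for intronic reads, because the median of all genes was 1.34 in input RNA and 1.81 in J2 RNA. Scaling by the median of ratios, as DESeq2 does, moves these medians to 0.02 and 0.07 and leaves 29.2% of genes risen and 26.1% fallen in input RNA, and 31.6% and 28.5% in J2 RNA. Under it HNRNPC still rose by 3.07 and 1.81 in input and J2 RNA, HNRNPL by 1.71 and 2.11 and HNRNPA2B1 by 1.49 and 2.23, while HNRNPDL fell by 2.15 and by 3.34. HNRNPM rose by 1.09 in input RNA but was not called in J2 RNA, at 0.04. HNRNPA1 and HNRNPK were called in neither under that scaling. The value of HNRNPH1 changed sign, to -1.29 in input RNA and -0.32 in J2 RNA.

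The intronic to spliced ratio per gene rose with drug in input RNA in 5 of 10 members and fell in HNRNPDL, against 58.8% and 2.07% of all genes. In HNRNPDL, intron 7 held 95.3% of the intronic reads in input RNA with drug, and the ratio of that intron alone did not pass there. The gene ratio also holds spliced reads of other introns, which changed by 0.90 at intron 1 and 0.81 at intron 4, against -0.50 at intron 7. HNRNPC, HNRNPM, HNRNPA2B1, HNRNPL and HNRNPU rose, by 2.21 to 3.68. HNRNPU held 10 intronic reads with vehicle and 13 with drug, beside 6155 and 1665 spliced reads, so its ratio moved mainly with spliced reads. In J2 RNA 7 of 10 rose, with HNRNPK and HNRNPA1 added, and HNRNPDL fell by 2.66 ± 0.30, against 57.7% and 4.89% of all genes. Intronic reads there were few for some of them. With vehicle and with drug they were 1 and 11 for HNRNPU, 3 and 24 for HNRNPK and 5 and 29 for HNRNPA1. Scaling intronic and spliced reads separately leaves 22.3% of all genes risen and 15.1% fallen in input RNA, and 26.2% and 19.7% in J2 RNA. It ended the calls of HNRNPU in input RNA and of HNRNPA1 and HNRNPK in J2 RNA.

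Spliced reads, the measure closest to mature mRNA here, moved in both directions with drug. The values are relative to the depth of bulk libraries, so fewer cells and less RNA per cell cannot be told apart. In input RNA 5 members rose and 3 fell, where 22.6% of 7808 genes rose and 48.5% fell. HNRNPU, a nuclear matrix and chromatin-associated member, had 60.7 and 63.5 spliced RPM with vehicle and 16.0 and 19.1 with drug. It fell by 1.83 ± 0.09 on the log2 scale (edgeR, adjusted p = 1.33e-07). HNRNPM had 40.9 and 40.0 RPM with vehicle and 19.1 and 20.6 with drug, and fell by 1.03 ± 0.08. Neither gene's groups overlapped, but this was common, with 58.04% of 7808 genes lower and 30.25% higher with drug without overlap. Among the hnRNP genes 5 were lower and 5 higher without overlap. Each listed intron of HNRNPU and HNRNPM had fewer spliced reads with drug in input RNA.

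HNRNPA1 rose most. It had 168.0 and 168.5 spliced RPM in input RNA with vehicle and 326.6 and 387.1 with drug, a rise of 1.08 ± 0.08 (adjusted p = 2.23e-06). Its introns did not all move together: 7 had more spliced reads with drug in both libraries and intron 4 had fewer, at -0.48. GENCODE 29 names 74 pseudogenes after HNRNPA1, so its reads may be shared with near-identical copies. HNRNPC rose by 0.70 ± 0.08, HNRNPDL by 0.44 ± 0.12, HNRNPH1, which binds guanine runs, by 0.42 ± 0.09, and HNRNPL by 0.20 ± 0.06. In HNRNPDL 2 of 5 listed introns had more spliced reads with drug, 1 had fewer and 2 overlapped between groups. The calls of HNRNPDL and HNRNPL were lost without input drug replicate 2 (adjusted p = 0.052 and 0.103) or without input vehicle replicate 2 (adjusted p = 0.0668 and 0.0681), and that of HNRNPL also without input vehicle replicate 1 (adjusted p = 0.0911). Without input drug replicate 2 the change of HNRNPL was 0.10 and that of HNRNPH1 was 0.28, still called (adjusted p = 0.013).

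HNRNPD, also known as AUF1, a binder of AU-rich elements, had 17.5 and 17.9 RPM with vehicle and 12.1 and 12.9 with drug. It fell by 0.50 ± 0.17 (adjusted p = 0.0222), but this call was lost without any 1 of the 4 input libraries (adjusted p from 0.0672 to 0.117) and under both other scalings. HNRNPA2B1 and HNRNPK changed by -0.08 ± 0.06 and -0.08 ± 0.10 and did not pass, and under median-of-ratios scaling both were called as risen, by 0.30. That scaling moves the median of all genes from -0.34 to 0.04, with 37.9% of genes risen and 35.1% fallen, and HNRNPU and HNRNPM still fell under it, by 1.45 and 0.65.

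**Figure D3:**
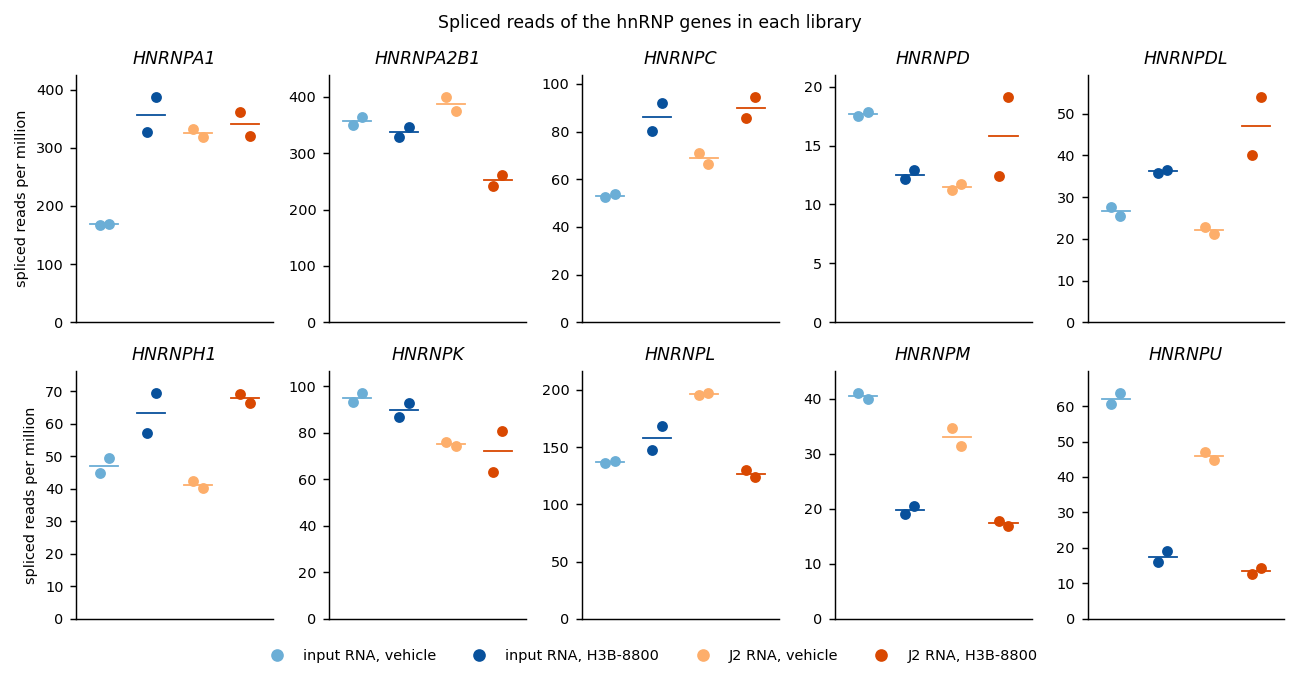
Spliced RPM of each gene, with 1 point per library, a bar at the mean of the 2 libraries of a group and each vertical axis from 0. HNRNPU and HNRNPM are lower in all 4 drug libraries than in the vehicle libraries, and HNRNPA1 with vehicle is lowest in input RNA.

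In J2 RNA 4 members rose with drug and 4 fell, against 35.1% and 40.4% of all genes. HNRNPU had 46.9 and 44.8 RPM with vehicle and 12.7 and 14.3 with drug, and fell by 1.76 ± 0.09. HNRNPM fell by 0.93 ± 0.08, HNRNPL by 0.63 ± 0.06 and HNRNPA2B1 by 0.62 ± 0.06. HNRNPDL had 22.9 and 21.1 RPM with vehicle and 40.0 and 53.9 with drug, and rose by 1.09 ± 0.12. HNRNPH1 rose by 0.72 ± 0.09 and HNRNPC by 0.39 ± 0.08. HNRNPD rose by 0.46 ± 0.17 with 12.4 and 19.1 RPM with drug, and without J2 drug replicate 2 the change was 0.12 (adjusted p = 0.333), against 0.73 without J2 drug replicate 1. The HNRNPD call was also lost without any 1 of 4 other libraries (adjusted p from 0.0527 to 0.124) and with only the groups compared. The change of HNRNPA1 was 0.06 ± 0.08 and that of HNRNPK -0.06 ± 0.10, and neither passed. Without J2 drug replicate 2 HNRNPK was called, at -0.25 (adjusted p = 0.00578).

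**Figure D4:**
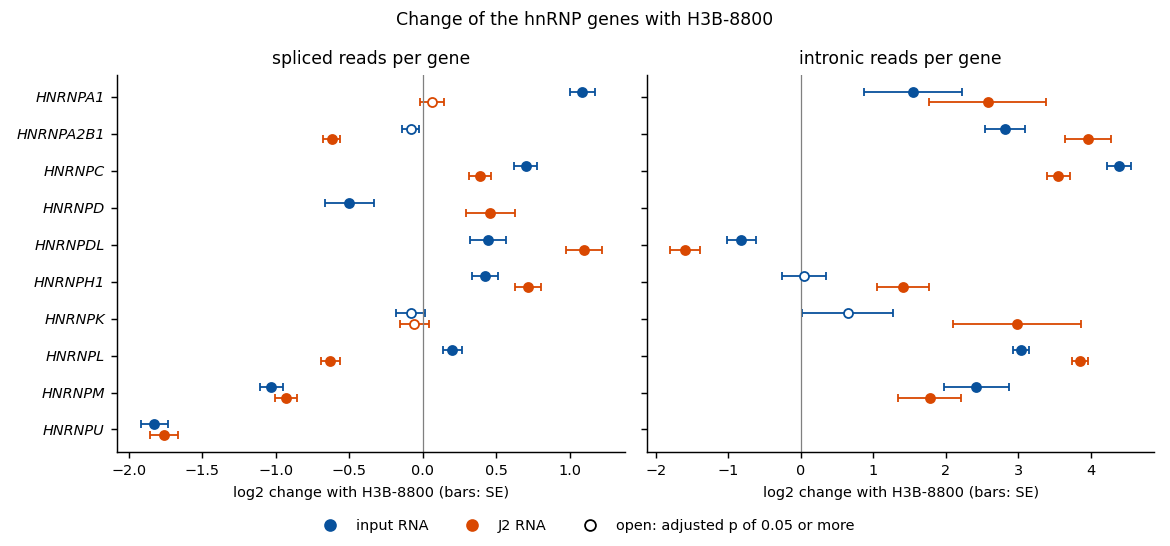
Log2 change with H3B-8800 of spliced reads (left) and intronic reads (right) per gene in input and J2 RNA, with bars for the SE and open points for an adjusted p of 0.05 or more. HNRNPU and HNRNPM fall in spliced reads in both, HNRNPA1 and HNRNPL lie further to the right in input RNA, and HNRNPDL alone of the members tested lies left of 0 in intronic reads.

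The comparisons of drug with vehicle and of J2 RNA with input share libraries, so their values are given side by side and not correlated. The drug effect was then compared between J2 RNA and input by an interaction term. For spliced reads 2 members had a higher and 4 a lower drug effect in J2 RNA, against 36.3% and 14.9% of all genes. HNRNPD was higher by 0.96 ± 0.24 and HNRNPDL by 0.65 ± 0.17. Without J2 drug replicate 2 these values were 0.61 and 0.42 and both were still called (adjusted p = 0.00196 and 0.00653). The difference was -1.02 ± 0.12 for HNRNPA1, -0.83 ± 0.09 for HNRNPL, -0.54 ± 0.08 for HNRNPA2B1 and -0.31 ± 0.11 for HNRNPC. HNRNPU and HNRNPM did not pass, at 0.07 ± 0.13 and 0.10 ± 0.11. These are sums over a gene, and the median change over HNRNPU introns was -2.51 in input RNA and -0.31 in J2 RNA. The HNRNPC call was lost without any 1 of 6 libraries (adjusted p from 0.052 to 0.132), and the HNRNPDL call without J2 vehicle replicate 2 (adjusted p = 0.0515). The HNRNPDL call was also lost under median-of-ratios scaling, which leaves 22.7% of genes with a higher and 25.9% with a lower effect.

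For intronic reads the drug effect in J2 RNA was higher for HNRNPH1, by 1.37 ± 0.47, and HNRNPL, by 0.81 ± 0.16, and lower for HNRNPC, at -0.84 ± 0.25. Of all genes 17.1% were higher and 1.97% lower. The calls of HNRNPH1 and HNRNPL were lost under TMM and median-of-ratios scaling, where the median of all genes moved from 0.43 to -0.06 and 0.02. The HNRNPH1 call was lost without any 1 of 6 libraries (adjusted p from 0.0512 to 0.158) and the HNRNPC call without any 1 of 3 (adjusted p from 0.0709 to 0.126). The ratio per gene gave no call among the 10 members, where 0.255% of genes were higher and 0.57% lower, and 4 members were higher and 1 lower at an unadjusted p under 0.05. With a variance trend, limma called 2 of them, HNRNPA2B1 at 1.61 and HNRNPL at 1.64. The ratio per intron gave no call among 89 introns, where 0.142% of introns were higher and 0.82% lower, and 10 were higher and 18 lower at an unadjusted p under 0.05. A count of 0 says little at the level of single introns, since this test had low power on simulated data where few introns change, and a pseudocount of 5 gave 26 calls.

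Levels in J2 RNA were next set against input. With vehicle, spliced reads of 3 members were higher in J2 RNA and 4 were lower, against 17.5% and 44.2% of all genes. HNRNPA1 had 333.0 and 318.6 RPM in J2 RNA against 168.0 and 168.5 in input, a rise of 0.95 ± 0.08. HNRNPL was higher by 0.52 ± 0.06 and HNRNPC by 0.37 ± 0.08. HNRNPD fell by 0.63 ± 0.17, HNRNPU by 0.44 ± 0.09, HNRNPK by 0.34 ± 0.10 and HNRNPM by 0.29 ± 0.07. None of these 4 lower calls held under median-of-ratios scaling, which moves the median of all genes from -0.25 to 0.09, leaves 36.4% of genes higher and 27.5% lower, and turns HNRNPK to 0.0017 and HNRNPM to 0.05. Under it HNRNPA2B1 was called higher, by 0.46, where the depth scaling gave 0.11 ± 0.06. With drug, HNRNPDL was higher by 0.38 ± 0.12, and HNRNPA2B1, HNRNPU, HNRNPK and HNRNPL were lower, at -0.42 to -0.32, against 29.5% and 28.5% of all genes. The HNRNPDL value with drug was 0.15 without J2 drug replicate 2 (adjusted p = 0.151), that of HNRNPK -0.15 without J2 drug replicate 1 (adjusted p = 0.0765) and that of HNRNPU -0.24 without input drug replicate 2 (adjusted p = 0.0599).

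Intronic reads with vehicle were lower in J2 RNA for 4 of 8 members, where 23.7% of all genes were lower and 5% higher. These were HNRNPK at -2.91 ± 0.90, HNRNPH1 at -1.79 ± 0.35, HNRNPA2B1 at -1.32 ± 0.41 and HNRNPL at -0.73 ± 0.13. With drug, HNRNPC at -0.37 ± 0.12 and HNRNPDL at -0.70 ± 0.22 were lower, against 15.1% lower and 16.7% higher of all genes. Without J2 drug replicate 2 the HNRNPC value was -0.22 (adjusted p = 0.324), and the calls of HNRNPK and HNRNPA2B1 with vehicle and of HNRNPC and HNRNPDL with drug were each lost without any 1 of 2 or 3 libraries. The ratio per gene with vehicle was lower in J2 RNA for HNRNPA2B1, HNRNPH1, HNRNPK and HNRNPL, against 6.15% lower and 3.83% higher of all genes. All 4 calls were lost without any 1 of 7 libraries, and with only the groups compared. With drug the ratio gave no call, where 0.982% of genes were higher and 2.26% lower, and 1 member was lower at an unadjusted p under 0.05.

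Coverage along several of the genes differed between the groups. The log2 ratio of spliced reads in upstream to downstream listed introns was -1.38 and -1.59 for HNRNPU in input RNA with vehicle, and -2.96 and -2.91 in J2 RNA with vehicle. HNRNPK had -1.72 and -1.63 in input and -2.45 and -2.54 in J2 RNA with vehicle, and HNRNPM -0.92 and -1.01 against -1.70 and -1.86. The ratio also differed with drug in input RNA, at -1.82 and -1.95 for HNRNPU, -2.26 and -2.20 for HNRNPK and -1.61 and -1.60 for HNRNPM. In that group HNRNPD had -0.39 and -0.42, while HNRNPDL went up, to 0.12 and 0.26. With drug the ratio in J2 RNA was -1.96 and -1.07 for HNRNPU, -1.61 and -1.30 for HNRNPK and -1.13 and -1.05 for HNRNPM. HNRNPD had -0.19 and 0.04 in input, -0.78 and -1.01 in J2 RNA with vehicle and 0.11 and 0.00 in J2 RNA with drug, and HNRNPDL had -0.23 and -0.24, -0.95 and -1.05, and -0.07 and 0.25. The values were closer together in HNRNPC, at -1.35 and -1.40 in input and -1.49 and -1.56 in J2 RNA with vehicle. HNRNPH1 went the other way with drug in J2 RNA, at -0.56 and -0.57 with vehicle and -1.39 and -1.57 with drug. The median over 6240 genes was 0.02 and 0.03 in input RNA with vehicle, 0.17 and 0.16 with drug, -0.28 and -0.28 in J2 RNA with vehicle and -0.08 and -0.10 with drug. The part of these differences in the J2 results was not tested.

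In HNRNPU all 12 listed introns had fewer spliced reads with drug in input RNA, at -4.07 to -1.53. In J2 RNA 4 of them had fewer and 8 overlapped between groups. In HNRNPK 9 of 14 introns had fewer spliced reads with drug in input RNA and 4 had more. In J2 RNA 8 had more and 4 had fewer, while the sum over the gene passed in neither. The sum of HNRNPA2B1 did not pass in input RNA, where 5 of its 9 introns had fewer spliced reads with drug, 1 had more and 3 overlapped. Its introns 2, 3 and 4 were lowest, at -0.80, -1.40 and -1.49. Summed per gene, 58.04% of 7808 genes were lower and 30.25% higher with drug in input RNA without overlap between groups. In J2 RNA these shares were 45.91% and 41.12%. HNRNPM had fewer spliced reads in all 10 introns in input RNA, but in J2 RNA 2 introns had more and 7 had fewer. Intron 4 of HNRNPA1 held 378 and 397 spliced reads in input RNA with vehicle and 273 and 260 with drug, but 276 and 275 in J2 RNA with vehicle and 746 and 1356 with drug.

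**Figure D5:**
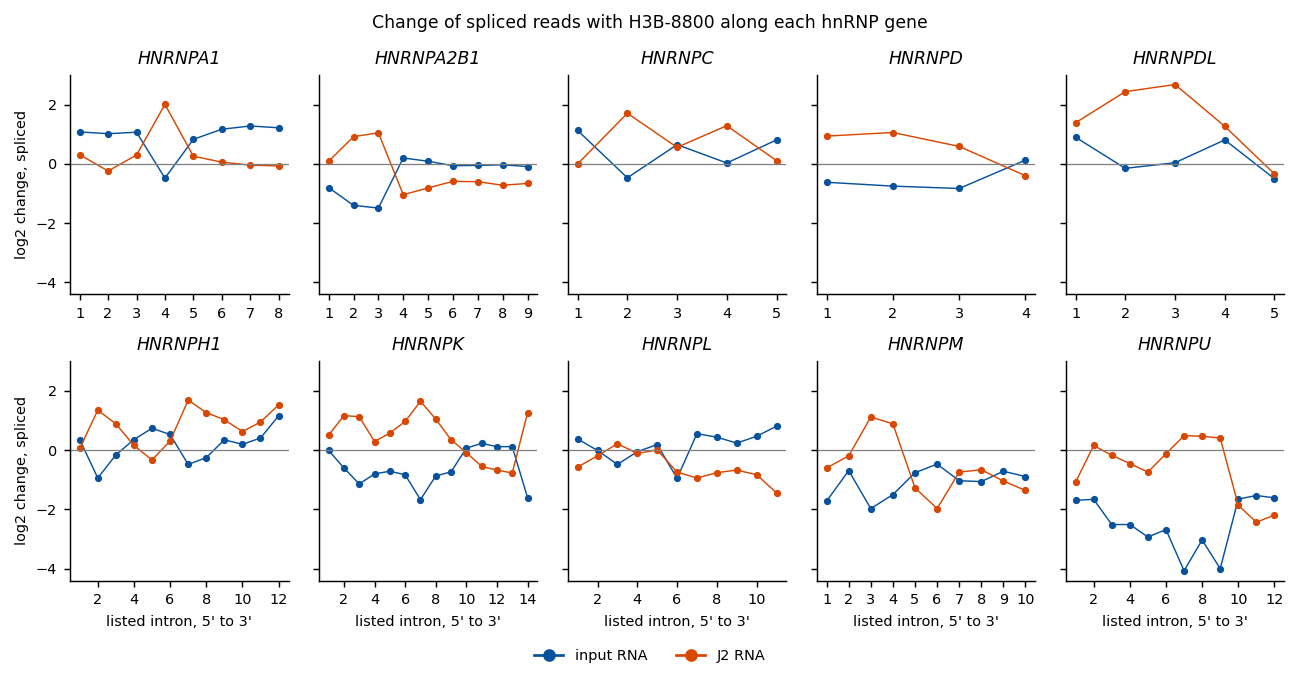
Log2 change of spliced RPM with H3B-8800 at each listed intron in 5′ to 3′ order, in input and J2 RNA, as the change of group means without error bars. Upstream introns of HNRNPU, HNRNPK and HNRNPA2B1 lie lower in input than in J2 RNA. HNRNPA1 intron 4 lies below 0 in input RNA, unlike its neighbours, and above 0 in J2 RNA.

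Of 25 other hnRNP family genes and related RNA-binding proteins, 22 were listed and 21 tested for spliced reads. In input RNA 8 rose with drug and 9 fell, against 22.6% and 48.5% of all genes. In J2 RNA 8 rose and 9 fell, against 35.1% and 40.4% of all genes. By smallest p, HNRNPR at 1.19 ± 0.08, ELAVL1 at 0.85 ± 0.07 and TARDBP at 1.45 ± 0.12 rose in input RNA. PCBP3 at -1.45 ± 0.09 and PCBP4 at -0.85 ± 0.06 fell. In J2 RNA HNRNPR at 1.47 ± 0.09, TARDBP at 1.68 ± 0.13 and HNRNPLL, a paralog of HNRNPL, at 1.28 ± 0.17 rose, and PCBP3 at -1.96 ± 0.09 and HNRNPAB at -1.27 ± 0.08 fell. The median of these 21 genes was -0.51 in input RNA, beside -0.34 for all genes and 0.06 for the 10 hnRNP genes. Intronic reads rose in 10 of 16 tested and fell in 2 in input RNA, where 62.3% of all genes rose and 5.65% fell. In J2 RNA they rose in 11 and fell in 2, where 70.8% of all genes rose and 5.2% fell. The counts of risen genes are thus near the shares over all genes.

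By spliced RPM over the 8 libraries, the pattern nearest to the median of the 10 genes was that of BCAS4, at a Euclidean distance of 0.161 over the 8 libraries on a centred log2 scale. TMSB4X at 0.191 and XXYLT1 at 0.195 came next. The 10 genes moved in both directions, so their median need not resemble any of them. BCAS4 itself varied little, at -0.173 to 0.057 on that scale.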

How the data were processed

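The 8 libraries are stranded and start from polyadenylated RNA, per the labels' protocols. HISAT2 2.0.4 and the builds hg38 and mm10 are listed in the submitters' processing notes, and the counting program is not given in the sources used here. The deposited files carry no header and hold 2 whole-number counts and an RPKM per intron. The authors' first count was read as intronic reads and its shortfall from the second count as spliced reads, inferred from the values. The authors' RPKM was used only to recover the depth of each library, 47000000 to 57000000 reads. Of 142224 introns, 18 without all values were left out. Coordinates matched introns of GENCODE 29 on GRCh38 for 89 of 90 hnRNP introns. No genome was used here, so sequence comes from covering transcripts, and the bases of the next exon were not printed.

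Counts per gene were tested with edgeR 4.0.16 (quasi-likelihood, depth as library size) and log2 of intronic + 1 over spliced + 1 with limma 3.58.1, in R 4.3.3, with 8 libraries and 4 group means. Filters on the mean over 8 libraries were 1 RPM for spliced reads (7808 genes), 0.2 RPM for intronic reads (6444), 1 RPM in total for the ratio (8248) and 20 reads in total per intron (45220). Benjamini-Hochberg adjustment ran over all features of a comparison, with a threshold of 0.05. Standard errors of edgeR are the log2 change over the square root of F. Alternatives were DESeq2 1.42.0, other scalings, pseudocounts, filters, a replicate block and leaving out each library.

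The tests were tested on simulated data with a small set of features changed. Those per gene recovered all or most of the set. The ratio per intron recovered none of it, and recovered most when many introns were changed, a setting added after the first result was seen. Calls of single introns, and counts of 0 in particular, have that limit. The members and lists were chosen with earlier results of these data known. The intron of highest share in each gene was named by rule, and further introns once their values were known. The other family genes are those of smallest p, of which some are not reported here.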

Additional observations from a re-analysis of the deposited data

Results flagged for a closer look

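For 7 of the hnRNP genes the drug effect differed between J2 RNA and input by the interaction test, with 2 libraries per group, where 36.3% of all genes were higher and 14.9% lower in spliced reads and 17.1% and 1.97% in intronic reads. In spliced reads the effect in J2 RNA minus that in input was -1.02 for HNRNPA1, -0.54 for HNRNPA2B1, -0.31 for HNRNPC, -0.83 for HNRNPL, 0.96 for HNRNPD and 0.65 for HNRNPDL on the log2 scale. Without J2 drug replicate 2 it was 0.61 for HNRNPD and 0.42 for HNRNPDL. In intronic reads it was -0.84 for HNRNPC, 1.37 for HNRNPH1 and 0.81 for HNRNPL. In spliced reads the HNRNPC call was lost without any 1 of 6 libraries, and the HNRNPDL call without J2 vehicle replicate 2 and under median-of-ratios scaling. In intronic reads the HNRNPH1 call was lost without any 1 of 6 libraries, the HNRNPC call without any 1 of 3, and the calls of HNRNPH1 and HNRNPL under TMM and median-of-ratios scaling. The log2 ratio of upstream to downstream spliced reads also differed between input and J2 RNA with vehicle, at -0.19 and 0.04 against -0.78 and -1.01 for HNRNPD and at -0.71 and -0.48 against -1.27 and -1.23 for HNRNPL, and its part in these values was not tested.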

How the results depend on the processing

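Counts of hnRNP genes called, out of 10 (8 for intronic reads), or of introns out of 89, are given here. Median-of-ratios scaling and DESeq2 both gave 4 in place of 7 for spliced reads in J2 RNA against input with vehicle, and 4 in place of 8 for intronic reads with drug in J2 RNA, as did TMM. For intronic reads in J2 RNA against input with drug they gave 1 and 0 in place of 2. With only the groups compared, spliced reads in J2 RNA against input with drug gave 2 in place of 5, and the ratio per gene with vehicle 0 in place of 4, as did no filter. A filter of 1 RPM in 2 libraries gave 5 in place of 8 for the ratio per gene in J2 RNA with drug, with fewer genes tested. For the ratio per gene it gave 1 in place of 0 in J2 RNA against input with drug and 2 in place of 0 for the interaction, as did a pseudocount of 5, and a variance trend gave 2 for the interaction. For the ratio per intron, at least 10 intronic reads in 2 libraries left 18 introns, several of which pass only through the drug libraries, and gave 10 in place of 33 in input RNA and 13 in place of 28 in J2 RNA. A pseudocount of 5 gave 43 in place of 28 in J2 RNA and 26 in place of 0 for the interaction, where median-of-ratios scaling gave 1. The cause was not tested except where fewer features were tested.

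Leaving out 1 library at a time gave, for spliced reads, 5 to 8 with drug in input RNA, 7 to 8 in J2 RNA, 5 to 8 for J2 RNA against input with vehicle, 3 to 6 with drug and 4 to 6 for the interaction. For intronic reads the same comparisons gave 5 to 6, 7 to 8, 2 to 4, 0 to 2 and 1 to 3. For the ratio per gene they gave 5 to 6, 7 to 9, 0 to 2, 0 and 0. For the ratio per intron, drug in input RNA gave 22 to 34, drug in J2 RNA 17 to 28 and the interaction 0 to 4. In such fits a group left with 1 library is assumed to vary like the others.

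Directions that turned were these. HNRNPA2B1 spliced reads with drug in input RNA became 0.30 under median-of-ratios scaling and DESeq2 and 0.18 under TMM, and HNRNPK 0.30 under the first and DESeq2. In J2 RNA against input with vehicle, HNRNPK became 0.0017 and HNRNPM 0.0499 under median-of-ratios scaling and DESeq2. The HNRNPK interaction became -0.28 with DESeq2. HNRNPH1 intronic reads became -1.29 under median-of-ratios scaling and DESeq2 and -1.31 under TMM in input RNA, and -0.32, -0.32 and -0.43 in J2 RNA. HNRNPM intronic reads in J2 RNA became -0.0569 under TMM. The HNRNPH1 ratio in J2 RNA became -1.04 and the ratio of HNRNPU intron 3 in input RNA -0.0644 under median-of-ratios scaling. Of 2551 values of single genes and introns under all alternatives, 2244 kept direction and side of the threshold, and of 1360 with 1 library left out, 41 changed sign, all of them past the threshold in neither fit.

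The labels give replicate numbers 1 and 2 in each group. Replicate differences correlated between groups at -0.079 to 0.136 over 7808 genes, with the highest value between input and J2 RNA with vehicle. Low correlations with 2 libraries per group cannot decide whether samples of the same number share an origin. The main tests treated the libraries as unpaired. A replicate block gave 2 in place of 4 for the ratio per gene in J2 RNA against input with vehicle, 31 in place of 33 introns in input RNA and 26 in place of 28 in J2 RNA, and the same count for the other comparisons.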
